A study of Mus musculus with 6 samples.

Results

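The synaptic vesicle and regulated exocytosis genes were followed in N2a cells after loss of nucleophosmin. The 36 genes were chosen by function, with earlier results of these data known. They were sorted into 4 groups: 11 vesicle proteins, 12 SNAREs and regulators, 7 Rab3 and Rab27 proteins with their effectors, and 6 endocytosis genes. All 36 were found among the 26656 gene IDs of the deposited table. N2a is a mouse neuroblastoma line of wild-type genotype. The control group (CTR, n = 3 libraries) had received the plasmid pLKO.1-shCTR, and the knockdown group (NPM1 KD, n = 3 libraries) the plasmid pLKO.1-shNpm1, which carries a single hairpin against *Npm1*. Total RNA was taken 72 h after transfection, at 3 days in vitro, with puromycin selection from 24 h on in the knockdown experiments, and sequenced as long cDNA reads. The series design gives 3 biological replicates and the treatment protocol 2 independent ones, so that p-values here measure the spread between these libraries.

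Neurons and neuroendocrine cells store transmitter in vesicles that are loaded, docked at the plasma membrane and primed. When calcium enters, a synaptotagmin triggers the SNARE proteins on the vesicle and on the plasma membrane to zip together and fuse both membranes. Rab3 proteins and their effectors hold vesicles near the release site, and clathrin, its adaptors and dynamin then recover the membrane. Neuroblastoma lines derive from the sympathetic lineage and keep part of this machinery in a dividing cell.

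*Npm1* itself, the target of the hairpin, read 10 in each CTR library and 8 in each NPM1 KD library on the deposited rlog scale, a log2 scale shrunk towards each gene's mean and rounded to whole numbers (difference -2 ± 0.33 SE, adjusted p = 3.23e-06, limma). Of the marker lists, 8 of 10 neuronal and 9 of 10 sympathoadrenal genes had a mean normalized count above 1, with *Nefl* and *Nefm* among those at 0, whereas 0 of 5 astrocyte, 0 of 5 blood and microglia, 0 of 5 fibroblast and 1 of 5 endothelium genes did. Relative depth, the size factor of a library, ranged from 1.11 to 1.30 in CTR and from 0.784 to 0.961 in NPM1 KD. The groups thus did not overlap in depth, and the part of depth in the results below was not tested. The mean normalized counts of all genes summed to 841220.

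Each gene was read in both available forms. The rounded rlog values tested 22 of the 36 genes, those with a mean of at least log2 of 10. Whole reads per library, recovered from the authors' mean normalized counts and, above a mean of 10, from the rounded rlog values as well, tested 17 genes with a mean of at most 25 and at least 10 reads. Together 30 genes were tested, 9 of them in both, and 6 in neither. Where the rounded values chose among several solutions, the reads of a gene are not independent of them. The recovered reads, their limits and their test were added after the rounded values had been seen.

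Upon NPM1 KD, the genes of the set that passed a test were lower. On recovered reads, *Sncg* and *Sncb*, which encode gamma-synuclein and beta-synuclein, small proteins that bind vesicle membranes, and *Rab3a*, the main Rab protein of synaptic vesicles, fell (3 of 17 genes tested). Across all 7237 genes tested on reads, 0.898% passed the adjusted threshold of 0.05, and 0.677% passed it as lower. Calls in either direction were more frequent at higher mean normalized counts. They were 7 of 4868 genes at means up to 10, 22 of 1336 at 10 to 15 and 36 of 1033 at 15 to 25. *Sncb* lay in the range of 10 to 15, and *Sncg* and *Rab3a* in that of 15 to 25. The share over all genes is therefore a low standard for these genes. On the rounded rlog values, limma called 0 of 22 genes, where 0.487% of 5752 genes passed (0.417% as lower and 0.0695% as higher). Of the 22 genes, *Sncg*, *Cplx2*, *Syt1* and *Rab3a* (4 genes, all lower) had an unadjusted p under 0.05, against 14.1% of all genes tested and 8.07% that were lower.

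*Sncg* had 50, 41 and 40 reads in the CTR libraries and 9, 6 and 6 reads in the NPM1 KD libraries. Divided by relative depth, these were 35.9 ± 4.40 normalized reads in CTR and 8.31 ± 2.79 in NPM1 KD (SD, n = 3 each), or 23.2% of CTR. The log2 fold change was -2.09 ± 0.40 (SE; adjusted p = 0.00829, limma with voom weights), and the lowest CTR library (31.5) lay above the highest NPM1 KD library (11.5). On the rounded scale *Sncg* read 5 in each CTR and 4 in each NPM1 KD library (adjusted p = 0.0791, limma). These values served to choose its reads among 28 solutions, so the split on reads is not independent of them. *Sncg* was 1 of the 2 genes among the 22 tested on rounded values that split without overlap there. Of all genes tested on that scale, 3.41% split this way as lower and 2.19% as higher.

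*Sncb* had 47, 22 and 14 reads in CTR and 1, 2 and 1 reads in NPM1 KD. Its CTR libraries were spread widely, at 22.4 ± 13.5 normalized reads, while the NPM1 KD libraries stayed at 1.57 ± 0.727. The fitted log2 fold change was -3.34 ± 0.77 (SE; adjusted p = 0.0268, limma with voom weights). Summed over libraries, 4 against 83 reads gave a level of 6.84% of CTR, with an exact 95% interval of 1.82% to 18.2% that covers counting error only. On the rounded scale *Sncb* read 4, 4 and 3 in CTR and 3 in each NPM1 KD library, a difference of -0.67 that did not pass (adjusted p = 0.470, limma).

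*Rab3a* had 40, 30 and 46 reads in CTR and 5, 6 and 12 reads in NPM1 KD. This gave 32.2 ± 9.12 against 8.69 ± 3.32 normalized reads, 27.0% of CTR, and a log2 fold change of -1.80 ± 0.40 (SE; adjusted p = 0.0236, limma with voom weights). All 3 NPM1 KD libraries lay below all 3 CTR libraries. The rounded values of *Rab3a* were 5, 4 and 5 in CTR and 4 in each NPM1 KD library (adjusted p = 0.330, limma).

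The calls on reads depended on the libraries entered, as the adjusted p of *Sncg* rose to 0.0947 without NPM1 KD replicate 2 and to 0.0752 without NPM1 KD replicate 3, that of *Rab3a* to 0.104, 0.137 and 0.0808 without NPM1 KD replicate 1, 2 and 3, and that of *Sncb* to 0.124, 0.162 and 0.174 without the same libraries and to 0.0603 without CTR replicate 1. The log2 fold changes remained between -2.32 and -1.90 for *Sncg*, -3.65 and -2.88 for *Sncb* and -2.10 and -1.60 for *Rab3a* whichever library was left out.

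The promoters of these 3 genes are shown because the genes passed on reads. They are RefSeq windows of the build GRCm38.p6, 250 bases before the annotated start site and 50 bases from it on, and are written 5′ to 3′ on the strand of the gene. Capitals mark the letters TGACG or, on the other strand, CGTCA, a core shared by binding sites of the CREB and ATF proteins. *Sncb* lies at chr13:54766546-54766845 (minus strand), *Sncg* at chr14:34374620-34374919 (minus strand) and *Rab3a* at chr8:70754453-70754752 (plus strand), with a second *Rab3a* window at chr8:70754852-70755151 that holds no match.
Sncb: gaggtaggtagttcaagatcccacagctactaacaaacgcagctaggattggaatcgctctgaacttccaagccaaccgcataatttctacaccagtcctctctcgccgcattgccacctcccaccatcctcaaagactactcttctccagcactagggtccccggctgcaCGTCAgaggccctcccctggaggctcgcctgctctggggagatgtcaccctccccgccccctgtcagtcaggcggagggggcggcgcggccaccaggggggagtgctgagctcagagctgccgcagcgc
Sncg: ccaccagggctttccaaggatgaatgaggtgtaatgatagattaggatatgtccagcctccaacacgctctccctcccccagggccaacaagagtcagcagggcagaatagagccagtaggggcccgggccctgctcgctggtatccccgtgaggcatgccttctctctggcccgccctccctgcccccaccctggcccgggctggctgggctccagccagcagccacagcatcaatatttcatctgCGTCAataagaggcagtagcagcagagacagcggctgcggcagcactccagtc
Rab3a: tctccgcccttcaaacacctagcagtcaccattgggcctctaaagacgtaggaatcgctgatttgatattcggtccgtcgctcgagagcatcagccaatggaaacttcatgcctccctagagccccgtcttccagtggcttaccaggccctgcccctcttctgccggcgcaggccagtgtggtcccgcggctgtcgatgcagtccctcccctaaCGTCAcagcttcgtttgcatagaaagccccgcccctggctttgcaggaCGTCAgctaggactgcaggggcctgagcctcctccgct

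The core began at position -79 from the start site in *Sncb*, at -3 in *Sncg*, and at -36 and 12 in *Rab3a*. It was searched because it was seen in these windows. It was present in 20.8% of all 32851 windows and in 14 of the 37 windows of the 30 genes of the set with an entry. Windows of *Ap2m1*, *Cltb*, *Cplx1*, *Napa*, *Rab3b*, *Rab3d*, *Stx1a*, *Syn1*, *Synj1*, *Sypl* and *Unc13a*, which did not pass, also held the core. Those of *Syt1* and *Cplx2* did not. A link between the core and the change was not tested. The longer form TGACGTCA, which contains the core, was present in 1.79% of all windows and in those of *Cltb*, *Napa* and *Syn1*. GGGCGG stood in 35.7% of all windows and in 25 of 37 windows of the set, CCAAT in 37.4% and 9 of 37, and CACGTG in 7.15% and 3 of 37, each on either strand. A match is a description of the letters and not of a bound site. No window was used for *Rab27b*, *Rims2*, *Vamp3*, *Syt4*, *Vamp2* and *Snap25*.

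**Figure D1:**
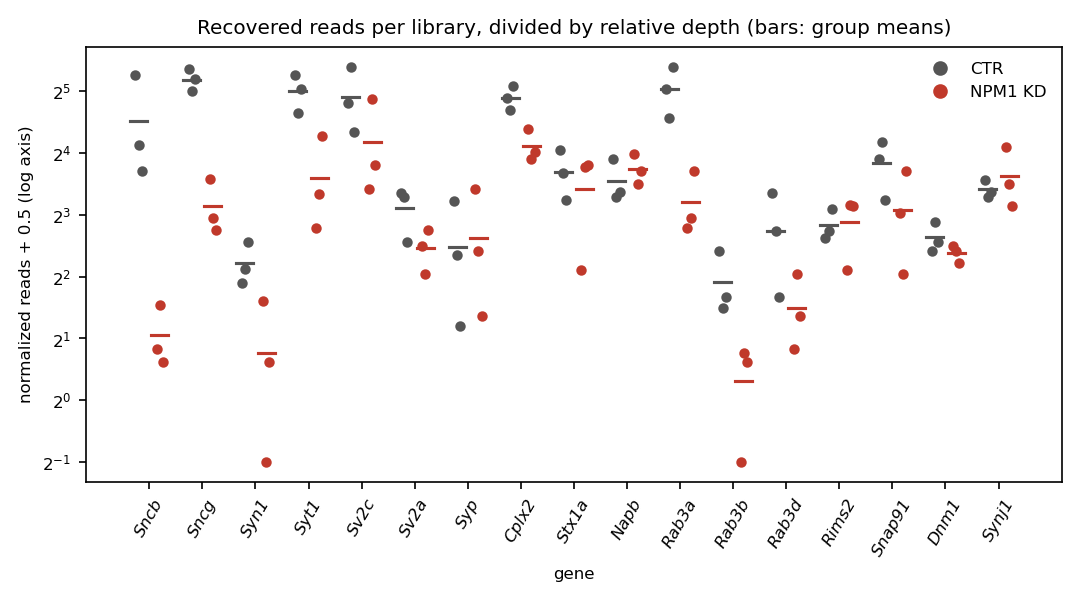
Normalized reads plus 0.5 (log2-spaced axis) of the 17 genes tested on recovered reads, with 1 point per library (grey CTR, red NPM1 KD; n = 3 each) and bars at the group means. The points of *Sncb*, *Sncg*, *Syn1*, *Syt1*, *Cplx2*, *Rab3a* and *Rab3b* do not overlap between groups, and those of the other 10 genes do.

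Among the 17 genes tested on reads, 13 were lower and 4 higher on average, where 53.9% of all genes tested were lower. Their median log2 difference was -0.80, against -0.07 over all genes tested. In 7 of the 17 genes all NPM1 KD libraries lay below all CTR libraries (12.9% of all genes tested), and in 0 all lay above (7.97%). At an unadjusted p under 0.05 stood 6 genes, all lower (9.24% of all genes lower at that level). On the rounded scale 12 of 22 genes were lower, 9 equal and 1 higher (27.4% of all genes tested were lower), and the median difference was -0.33 against 0 over all genes tested. The genes were chosen with earlier results of these data known, so these counts describe the set and do not test it. As these are bulk libraries, fewer cells with a transcript and less of it per cell cannot be told apart.

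The vesicle proteins other than the synucleins included 1 gene close to the threshold. *Syt1*, the calcium sensor of fast release, had 47, 32 and 36 reads in CTR and 5, 8 and 18 in NPM1 KD, or 31.6 ± 6.67 against 11.6 ± 6.41 normalized reads. The groups did not overlap, and the log2 difference of -1.46 ± 0.38 (SE) had an adjusted p of 0.0510 (limma with voom weights).

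*Syn1*, a synapsin that tethers vesicles to each other, was rare, with 4, 5 and 6 reads in CTR and 2, 0 and 1 in NPM1 KD. Its groups did not overlap, but 3 against 15 reads allow 5.27% to 100.4% of the CTR level (exact 95% interval, counting error only), and the adjusted p was 0.369. The vesicle glycoproteins *Sv2a* and *Sv2c* were lower on average without passing. *Sv2a* had 12, 12 and 6 reads in CTR and 4, 3 and 6 in NPM1 KD (-0.60 ± 0.51 SE, adjusted p = 0.605), and *Sv2c* had 34, 54 and 22 against 8, 24 and 13 (-0.80 ± 0.36 SE, adjusted p = 0.287). In both the groups overlapped.

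Synaptophysin (*Syp*), an abundant membrane protein of the vesicle, differed by less than its error, with 11, 6 and 2 reads in CTR and 8, 4 and 2 in NPM1 KD. Its log2 difference was 0.08 ± 0.61 (SE, adjusted p = 0.968), an error wide enough to hold changes of either direction. *Sypl*, its more widely expressed relative, read 5 in every library on the rounded scale, and its single whole-read solution was 42, 33 and 31 against 35, 15 and 27 reads. *Syt11* read 6 in every library. *Syn2* read 6, 5 and 5 in CTR and *Syt4* 5, 6 and 5, and both read 5 in each NPM1 KD library (each -0.33, adjusted p = 0.713).

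**Figure D2:**
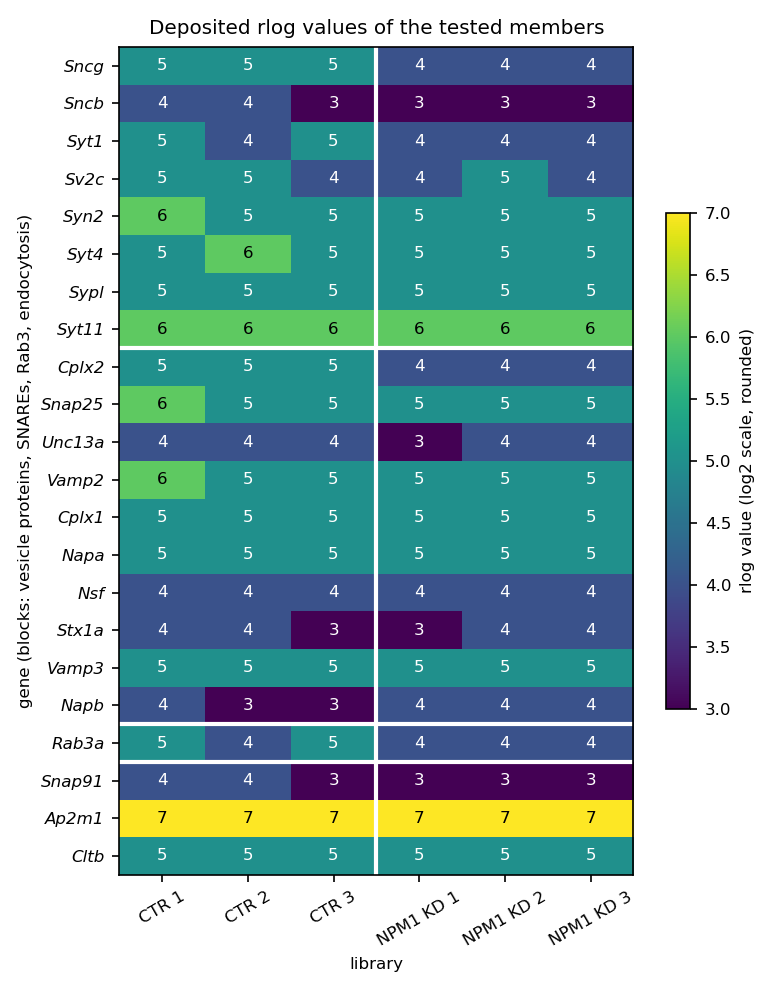
Deposited rlog values, rounded to whole numbers on a log2 scale, of the 22 genes tested in that form (rows, in blocks by group) in the 6 libraries (columns). *Sncg* and *Cplx2* step from 5 to 4 between the groups, and 8 genes hold 1 value in all 6 libraries.

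Of the 12 SNAREs and regulators, 10 were tested on rounded values and 3 of these on reads as well, and 0 passed. Of all genes tested, 0.487% passed on rounded values and 0.898% on reads. *Cplx2*, a complexin that clamps the assembled SNARE complex until calcium arrives, was the nearest. It had 36, 33 and 37 reads in CTR and 16, 12 and 15 in NPM1 KD, or 29.2 ± 3.94 against 16.8 ± 3.18 normalized reads. All NPM1 KD libraries lay below all CTR libraries on both scales (5 against 4 on the rounded scale), with an adjusted p of 0.0791 on rounded values and of 0.241 on reads (-0.78 ± 0.33 SE). These reads were the single solution within 0.52 of the rounded values, so the split on reads is not independent of that on rounded values. Within 0.6 there were 2 solutions, with log2 ratios of -1.39 and -0.80.

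The plasma membrane SNAREs gave no call. *Stx1a* (syntaxin) had 20, 16 and 10 reads in CTR and 3, 11 and 13 in NPM1 KD, and its low value in NPM1 KD replicate 1 set the sign of the difference (-0.37 with all libraries, 0.14 without that replicate; adjusted p = 0.743 and 0.921). *Snap25*, its partner on the plasma membrane, read 6, 5 and 5 in CTR and 5 in each NPM1 KD library. *Vamp2*, the main SNARE of the synaptic vesicle, showed the same 6 values. *Vamp1*, a relative of *Vamp2*, had 4 reads in all, under an ID that it shares with *E130112N10Rik*.

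Spent SNARE complexes are taken apart by an ATPase and its adaptors. *Nsf*, the ATPase, read 4 and *Napa*, one of its adaptors, read 5 in every library. *Napb*, the neural form of the adaptor, was the 1 higher gene on the rounded scale, at 4, 3 and 3 in CTR and 4 in each NPM1 KD library (0.67, adjusted p = 0.396), and it had 18, 12 and 11 reads against 12, 9 and 12 (0.22 ± 0.39 SE, adjusted p = 0.842). *Cplx1* and *Vamp3*, the second a SNARE of general recycling, read 5 in every library. *Unc13a*, a priming factor, read 4 in all libraries but NPM1 KD replicate 1, where it read 3, and *Cadps*, a priming factor of dense-core vesicles, had 0 reads in all 6 libraries. A count of 0 allows up to 3 reads in a library.

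For 10 genes several whole-read solutions fitted both the mean and the rounded values, so that they were tested on the rounded values alone, where none passed. *Snap25* (6 solutions, log2 ratio of NPM1 KD to CTR from -0.77 to -0.14), *Unc13a* (2 solutions, -1.38 to -0.20), *Syn2* (9 solutions, -1.30 to -0.20) and *Vamp2* (5 solutions, -1.27 to -0.25) were lower in each of their solutions. With the tolerance for the rounded values widened from 0.52 to 0.6, *Snap25* had 11 solutions from -2.16 to -0.14 and *Unc13a* the range given above, whereas the ratios of *Syn2* ran from -1.30 to 0.33 and those of *Vamp2* from -1.64 to 0.49. The solutions of *Syt4*, *Syt11*, *Cplx1*, *Nsf*, *Vamp3* and *Cltb* lay on both sides of 0. Within 0.6 the log2 ratios ran from -1.33 to 0.76 for *Syt4*, -1.43 to 1.40 for *Syt11* and -1.09 to 1.03 for *Cplx1*. Those of *Nsf* ran from -0.82 to 0.57, of *Vamp3* from -0.25 to 0.33 and of *Cltb* from -0.55 to 0.47. Hence changes up to the ends of these wider ranges were not detectable in the deposited values of those 6 genes.

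**Figure D3:**
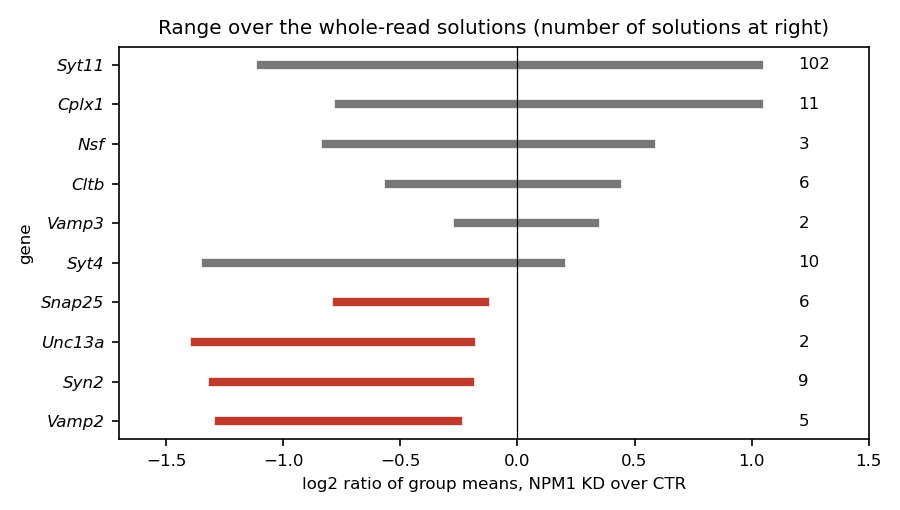
Range of the log2 ratio of group means (NPM1 KD over CTR) over the whole-read solutions within 0.52 of the rounded values. Shown are the 10 genes with several solutions, with the number of solutions at the right. Red bars mark the 4 genes whose solutions all lie below 0 (*Snap25*, *Unc13a*, *Syn2*, *Vamp2*), and the bar of *Syt11* with 102 solutions runs from -1.10 to 1.03.

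Of the Rab3 and Rab27 group, 4 genes were tested on reads, and *Rab3a* alone passed. *Rab3b* and *Rab3d*, relatives of *Rab3a*, were lower on average at few reads, whereas *Rab3c*, which is outside the set and is named after its values were seen, read 6 in every library on the rounded scale. *Rab3b* had 6, 3 and 3 reads in CTR and 0, 1 and 1 in NPM1 KD, without overlap, but 2 against 12 reads allow 2.57% to 106.3% of the CTR level (exact 95% interval, counting error only; adjusted p = 0.420). *Rab3d* had 12, 8 and 3 reads in CTR and 1, 3 and 2 in NPM1 KD (-1.12 ± 0.70 SE, adjusted p = 0.444), with overlap between the groups.

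Of the Rab3 effectors, *Rims2* was the 1 gene with enough reads for a test. This scaffold of the release site, which binds Rab3, had 7, 8 and 9 reads in CTR and 3, 7 and 8 in NPM1 KD, or 6.62 ± 1.29 against 6.85 ± 2.62 normalized reads (0.06 ± 0.49 SE, adjusted p = 0.972). *Rims1*, a related scaffold, had 1 read in all, in CTR replicate 1, and *Rab27b*, a Rab protein of secretory granules, had 1, in NPM1 KD replicate 3. *Rph3a* (rabphilin), which binds Rab3 and Rab27, had 0 reads in every library. Whether *Rab3a* and *Rims2* differ in response was not tested.

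The endocytosis genes gave 0 calls among 3 tested on rounded values and 3 on reads. *Snap91*, a clathrin assembly protein of nerve terminals, had 18, 23 and 10 reads in CTR and 6, 3 and 12 in NPM1 KD, with overlap (-0.82 ± 0.46 SE, adjusted p = 0.389). *Dnm1*, the neuronal dynamin that cuts vesicles off, had 6, 9 and 6 reads against 4 in each NPM1 KD library (-0.22 ± 0.53 SE, adjusted p = 0.889). *Synj1*, the lipid phosphatase that helps to strip clathrin, had 14, 12 and 11 reads against 13, 9 and 8 (0.17 ± 0.40 SE, adjusted p = 0.886). The coat subunits held 1 rounded value throughout, at 7 for the adaptor subunit *Ap2m1* and at 5 for the clathrin light chain *Cltb*, and *Amph* (amphiphysin) had 1 read in all.

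**Figure D4:**
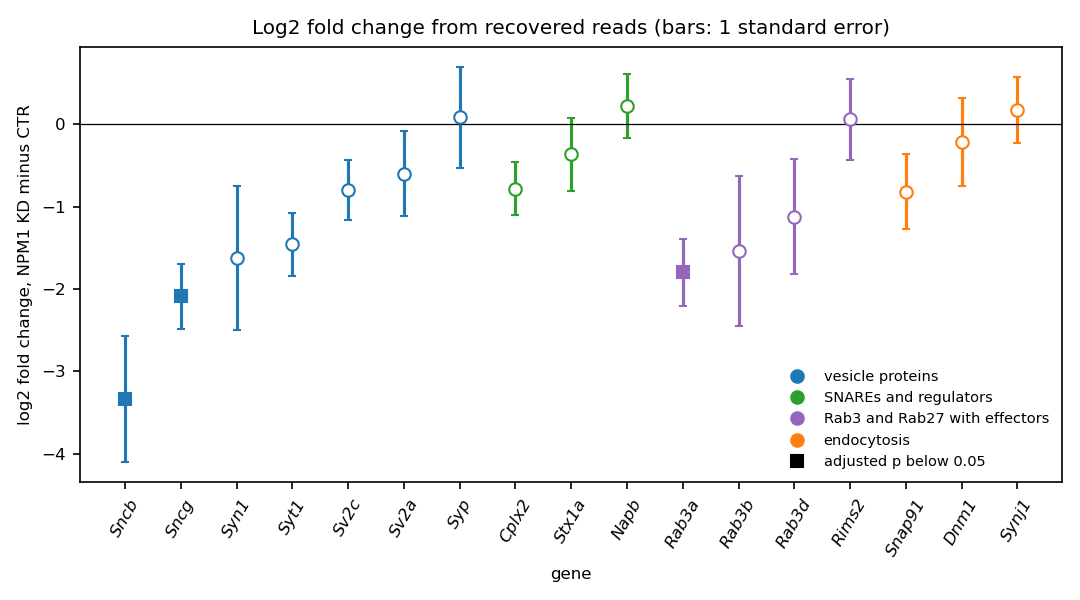
Log2 fold change (NPM1 KD minus CTR) from recovered reads with 1 standard error for the 17 genes tested, coloured by group, with filled squares for an adjusted p below 0.05. *Sncb*, *Sncg* and *Rab3a* are the 3 filled squares at -3.34, -2.09 and -1.80, and *Syp*, *Napb*, *Rims2* and *Synj1* lie above 0.

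Further genes of the same pathway were counted from a list of 128, of which *Scamp4*, *Slc18a3* and *Vamp7* were not analysed here. On reads, 36 of 54 tested genes were lower and 18 higher, with a median log2 difference of -0.31, and 1 passed (53.9% of all genes tested were lower and 0.898% passed). On rounded values 0 of 47 passed in limma, and 6 had an unadjusted p under 0.05, against 14.1% of all genes tested. The gene that passed was *Slc18a2*, the vesicular monoamine transporter that loads catecholamines. It had 52, 42 and 21 reads in CTR and 8, 6 and 6 in NPM1 KD, or 31.0 ± 11.6 against 7.89 ± 2.07 normalized reads (-1.86 ± 0.42 SE, adjusted p = 0.0245, limma with voom weights). This call was lost when any library other than CTR replicate 3 was left out. The mean normalized count of *Slc18a2* lay in the range of 15 to 25, where 36 of 1033 genes passed.

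Without overlap on reads were 14 of these 54 genes as lower and 2 as higher, where 12.9% of all genes tested split as lower and 7.97% as higher. The lower ones included, besides *Slc18a2*, *Syt7*, *Stx2*, *Stx7*, *Stxbp2*, *Stxbp5l*, *Rims3*, *Dnm2*, *Bin1*, *Eps15l1*, *Epn1*, *Sh3gl3* and *Necap1*, and the higher ones were *Erc1* and *Rims4*, proteins of the release site. *Syt9*, too rare to be tested, also split as lower. *Necap1*, an endocytic adaptor of neurons, had 32, 48 and 30 reads in CTR and 8, 11 and 14 in NPM1 KD (-1.17 ± 0.35 SE, adjusted p = 0.0857). It read 5 in each CTR and 4 in each NPM1 KD library on the rounded scale. These rounded values served to choose the reads of *Necap1* among 31 solutions, so its split on reads is not independent of them.

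Some neuronal and sympathoadrenal markers of the line moved by the same step on the rounded scale. *Tubb3*, *Stmn2*, *Gap43* and *Isl1* were each 1 unit lower in all 3 NPM1 KD libraries (each adjusted p = 0.0791, limma), whereas *Stmn3*, *Uchl1* and *Elavl3* had equal means and *Hand2* differed by 0.33 (adjusted p = 0.713). None of the markers passed. Their part in the results on vesicle genes was not tested.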

How the data were processed

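Long cDNA reads of 6 N2a libraries (3 CTR, 3 NPM1 KD) were aligned, counted per gene and normalized by the authors; the processing notes name minimap2, featureCounts, DESeq2 and GRCm39, with no versions, and the annotation is not given in the sources used here. The authors deposited 2 kinds of score: rlog values (log2 scale), in which every value of 1 or more in size was rounded to a whole number, and, per gene, a normalized count averaged over the 6 libraries. Rounding hides differences that do not cross a whole number. The table of means also holds the authors' own fold changes and p-values, which were not used. Of 26913 rows, 257 repeated a gene ID and were removed.

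The rlog values were tested with limma 3.58.1 (R 4.3.3; intensity trend, within-group variance of at least 0.0833 to allow for rounding, mean of at least log2 of 10, two-sided, Benjamini-Hochberg over 5752 genes, threshold 0.05).

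A mean normalized count is a sum of whole reads, each weighted by the depth of its library. Genes with 1 read gave the 6 weights, and whole reads were solved from the printed digits (Python 3.11.15, numpy 2.4.6, scipy 1.17.1). All 8804 genes with a mean under 10 had 1 solution. Weights were assigned to libraries through 1933 genes whose rlog values keep decimals (mean correlation 0.999; next best assignment 0.633). For means of 10 to 25, a solution also had to give recomputed rlog values within 0.52 of the rounded ones, and 2369 of 2784 genes then had 1; with 0.6 in place of 0.52, 1959 did. In 4415 genes not used to set up the recomputation, it differed from deposited decimals by at most 0.0129. Decimals exist only for values under 1 in size. Of 20866 rounded values in these genes, 8 differed by more than rounding allows, by up to 0.0046 beyond it. All genes checked had lower means than *Sncg*, *Rab3a* and *Syt1*, so the accuracy was not measured at the means of these 3 genes. *Sncb* had 1 solution before this step, *Rab3a* 19 and *Sncg* 28; within 0.6, *Rab3a* had 1 and *Sncg* 2, with log2 ratios of -2.11 and -2.01. Genes with 1 solution, at least 10 reads and a mean of at most 25 (7237) were tested with limma on voom weights. Both fits were tested on simulated data, which covered neither the recovery of reads nor the choice of genes with 1 solution.

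The 36 genes, the further pathway genes and the markers were chosen with earlier results of these data known. All tested genes of the set were named; further pathway genes were named where they passed or did not overlap between groups, except for some that are not reported here. Alternatives were other filters, scalings, variance settings, the replicate block and leaving out each library. An exact permutation test of 3 against 3 libraries cannot go below p = 0.1 and was not used. Counting intervals and the limit of 3 reads for a count of 0 cover counting error only.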

Additional observations from a re-analysis of the deposited data

How the results depend on the processing

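The call of the rounded values rested on the variance settings. Over all genes, 4 were called higher and 24 lower, with 0 genes of the vesicle set and 0 further pathway genes. Without the allowance for rounding, these counts were 123, 178, 2 and 2, and without an intensity trend 132, 218, 2 and 3; the 2 genes of the set were *Cplx2* and *Sncg* both times. Over 20 draws of unrounded values 0 genes were called in either direction, 5 genes of the set were higher on average in place of 1, and *Npm1* differed by -1.95 with an adjusted p of 0.198. Without a filter 1 gene was called higher and 10 lower. The number of genes of the set that were higher on average was 2 with a mean of at least log2 of 5, 0 with at least log2 of 20, 2 without a filter and 10 with libraries centred on their mean, since centring moved the 9 genes with equal means to 0.02 by construction. Leaving out 1 library gave 0 to 2 genes called higher, 5 to 9 lower and 1 to 2 genes of the set higher on average.

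Recovered reads in place of rlog values, added after seeing the data, called 16 genes higher and 49 lower, 3 of the set and 1 further pathway gene. A trend on log2 of normalized reads plus 0.5 called 10 and 77. Genes with a mean of up to 15 gave 0 calls higher, 0 lower, 0 in the set and 0 in the further list, with 8 genes of the set lower on average; *Sncg*, *Rab3a* and *Syt1* are not among these genes by construction. At least 30 reads gave 29 genes lower. Leaving out 1 library gave 2 to 13 genes called higher, 0 to 63 lower, 0 to 3 of the set and 0 to 1 further gene; the set had 1 call (*Sncg*) without NPM1 KD replicate 1 and 0 without NPM1 KD replicate 2 or 3. *Syt1* passed under the trend, the 30-read minimum and the replicate block (adjusted p = 0.0457, 0.0495 and 0.0197). *Sncb* missed the threshold at means up to 15 (adjusted p = 0.0620) and at 30 reads (0.144). Signs turned for *Rims2* (-0.013 under the trend; -0.11 to 0.37 with 1 library left out, below 0 without CTR replicate 1, NPM1 KD replicate 2 or 3), *Syp* (-0.024 at 30 reads; -0.40 to 0.66 with 1 library left out, below 0 without CTR replicate 3 or NPM1 KD replicate 1), *Synj1* (-0.074 to 0.41) and *Stx1a* (-0.66 to 0.14), the latter both only without NPM1 KD replicate 1. The cause was not tested.

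Whether the replicate numbers pair the samples cannot be told from correlations this small. Deviations of libraries with the same number correlated at 0.00887, 0.00128 and 0.0298 on rlog values and at 0.0167, 0.00169 and 0.0346 on reads. Not every library correlated best with its own number on either scale. With the replicate number as a block, 1 gene was called higher and 7 lower on rlog values, and 41 and 99 on reads. The block called 0 genes of the set on rlog values and 4 on reads. On reads the adjusted p under the block was 0.00072 for *Sncg*, 0.00125 for *Sncb* and 0.00293 for *Rab3a* (limma with voom weights). Depth limits the rare genes most, since a library at 0 reads may hold up to 3.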
